A study of Arabidopsis thaliana with 6 samples.

Results

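The genes described here are 153 Arabidopsis thaliana genes that the probe annotation names by locus code alone and whose signal in rosette leaves was 2- to 4-fold higher in line A6 than in wild type. They were measured by 154 probe sets, taken from 11922 probe sets that pair with 1 gene, carry only such a code and lie outside 3 ranges of neighbouring genes left out of the choice (AT2G43580 to AT2G43620, AT5G52740 to AT5G52760 and AT1G65490 to AT1G65510). A probe set was chosen when the mean of the 3 A6 values exceeded the mean of the 3 wild-type values by at least 1 and under 2 on the log2 scale, and when the lowest A6 value lay above the highest wild-type value. The members were thus chosen by the A6 minus wild type difference of these 6 arrays, so their direction, their size and the separation of the lines are a description and support nothing. The label could be checked only as far as it restates these bounds, which all 154 probe sets meet.

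The study compared leaves of the mutant line A6 with leaves of wild-type plants on Affymetrix ATH1 arrays, 3 arrays of each line. Leaves 3 to 6 of rosettes were taken at an age of 3 weeks, from plants kept at 20 °C under 20 h of light and 4 h of dark. The series presents A6 as deficient in N6-methyladenosine, and the line is known as an mta mutant that carries MTA under the embryo-active ABI3 promoter. A6 is 1 line, the labels name no accession for either line, and they call the replicates biological without saying how many plants went into each.

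N6-methyladenosine (m6A) is the most common internal mark of messenger RNA. In plants it is written by a nuclear complex around the methyltransferases MTA and MTB, read by YTH-domain proteins and removed by ALKBH-type demethylases, and it is known to affect how long a transcript lasts and how it is processed. A plant without MTA arrests as an embryo, which is why the line expresses the gene there. An Arabidopsis locus code gives the chromosome after AT and then a number that follows the order of genes along it, so nearby codes mostly mark neighbouring genes. RefSeq listed all 154 probe sets under a gene, 150 of them protein-coding and 4 transcribed pseudogenes, and gave a descriptive name to only 2 of the genes, so no function is stated for the others.

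Every value is a log2 signal centred on the median of its probe set over the 6 arrays: it says how far an array lies from the middle of the 6 and not how abundant a transcript is, and values of different genes cannot be ranked as levels. Because the lines do not overlap in any chosen gene, all 154 probe sets are above 0 on the A6 arrays and below 0 on the wild-type arrays, and the lowest A6 value mirrors the highest wild-type value. In whole leaves, more cells of a type and more RNA per cell cannot be told apart. The tissue could be checked only by differences, since centred values hold no level. The hybridisation controls BioB, BioC and BioD averaged 0.49 in A6 replicate 3 and 0.46 in wild-type replicate 1, against -0.38 to 0.023 on the other 4 arrays. The 3' minus 5' difference over 6 pairs of control probe sets, a sign of RNA quality, was -0.033 to -0.021 in A6 and 0.016 to 0.091 in wild type, and the 25S ribosomal RNA probe set was 0.51 to 0.83 in A6 and -1.06 to -0.51 in wild type. The part of these array differences in the results was not tested beyond the fits given below.

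Differences among the 154 probe sets ran from 1.004 to 1.98 log2 units with a median of 1.32, and the median over all 22746 non-control probe sets was -0.025. The members crowded toward the lower bound: 53 lay below 1.2, 38 between 1.2 and 1.4, 23 between 1.4 and 1.6, 25 between 1.6 and 1.8 and 15 above 1.8. Members made up 1.29% of the 11922 probe sets they were drawn from. Over all probe sets, 13.1% had every A6 value above every wild-type value, and 1.6% did so with a difference of 1 to under 2. A limma fit across all probe sets gave 141 of the 154 an adjusted p under 0.05, where 5.03% of all probe sets were called higher in A6 and 9.77% in either direction. Nothing is read from that count, because the same contrast chose the members.

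**Figure D1:**
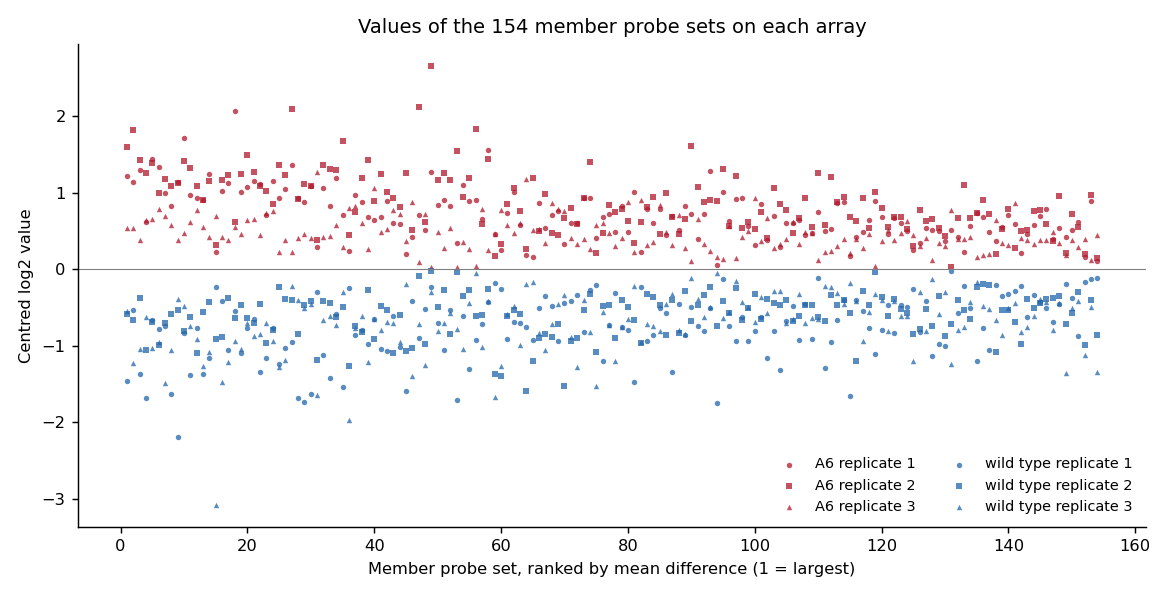
Centred log2 value (vertical axis) of each of the 154 member probe sets on each of the 6 arrays, ordered from the largest mean difference to the smallest (horizontal axis). Red points are the A6 arrays and blue points the wild-type arrays, and marker shape gives the replicate. All red points are above 0 and all blue ones below; the highest single value is 2.66 on A6 replicate 2 and the lowest -3.08 on wild-type replicate 3.

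The 6 members nearest the upper bound were AT3G51440, AT4G03450, AT4G23610, AT1G26380, AT2G20142 and AT3G47380. AT3G51440 had centred values of 1.21, 1.602 and 0.54 in A6 replicates 1 to 3, against -1.46, -0.58 and -0.54 in wild-type replicates 1 to 3. Its difference of 1.98 (SE 0.32) is a 3.95-fold higher signal in A6. AT4G03450 had 1.14, 1.82 and 0.54 in A6 and -0.54, -0.67 and -1.23 in wild type. In both genes A6 replicate 2 was the highest array and A6 replicate 3 the lowest of the A6 arrays. AT4G23610 had 1.298, 1.43 and 0.38 in A6 and -1.37, -0.38 and -1.04 in wild type, with a log2 difference of 1.96 (SE 0.32). AT2G20142 had 1.44, 1.39 and 0.66 in A6 and -0.66, -0.69 and -1.03 in wild type, with a log2 difference of 1.96 (SE 0.22). AT3G47380, the sixth, is described below as the member with the widest gap, and AT1G26380 with its neighbours.

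Just past the upper bound, and so not members, were AT4G29520 with a log2 difference of 2.004 (SE 0.31) and AT1G68620 with a log2 difference of 2.01 (SE 0.57). AT1G68620 averaged 1.05 ± 0.97 in A6 and -0.96 ± 0.97 in wild type (SD, n = 3 each), the wider spread of the pair.

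The 4 members nearest the lower bound were AT3G05180, AT1G12290, AT5G51890 and AT3G09490, with differences of 1.004, 1.01, 1.01 and 1.01. AT3G05180 had 0.11, 0.14 and 0.45 in A6 replicates 1 to 3, against -0.11, -0.86 and -1.34 in wild-type replicates 1 to 3. Its A6 replicate 3 was the highest A6 array, as it was in AT5G51890, which had 0.17, 0.19 and 0.398 in A6 and -0.17, -0.99 and -1.12 in wild type. AT1G12290 ran the other way within A6, with 0.899, 0.97 and 0.13 in A6 and -0.13, -0.396 and -0.497 in wild type. AT3G09490 had 0.62, 0.56 and 0.29 in A6 and -0.87, -0.29 and -0.41 in wild type. Just under the bound were AT1G51920 with a log2 difference of 0.997 (SE 0.13) and AT3G51450 with a log2 difference of 0.99 (SE 0.14), and their gaps between the lines of 0.75 and 0.67 were wider than that of any of these 4 members. A cut at 1 thus leaves out genes that were better separated than some that it keeps.

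How far apart the lines stood was measured by the gap between the lowest A6 and the highest wild-type value. The median gap was 0.76 log2 units over the 154 probe sets, 29 had a gap of at least 1 and 11 a gap under 0.25. AT3G47380 had the widest gap, 1.57, with 1.34, 1.003 and 0.79 in A6 and -0.79, -0.99 and -0.95 in wild type. It was followed by AT1G06000 (1.54), AT1G58420 (1.53), AT1G67330 (1.49), AT1G20120 (1.41) and AT5G59670 (1.399). AT1G06000 had values of 0.93, 1.096 and 0.77 in A6 and -0.77, -1.09 and -0.91 in wild type. AT1G67330 had the smallest standard error of these 6 genes: its values were 0.98, 0.75 and 0.83 in A6 and -0.86, -0.75 and -0.77 in wild type, and its difference of 1.64 (SE 0.103) ran from 1.58 to 1.697 when any 1 array was left out. AT1G58420 averaged 0.93 ± 0.203 in A6 and -0.83 ± 0.09 in wild type (SD, n = 3 each), and AT1G20120 averaged 0.82 ± 0.18 in A6 and -0.94 ± 0.23 in wild type (SD, n = 3 each). AT5G59670 averaged 0.96 ± 0.24 in A6 and -0.98 ± 0.44 in wild type (SD, n = 3 each), its lowest wild-type array being replicate 3. In each of the 6 genes the gap exceeded the range within A6 and the range within wild type.

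The 4 narrowest gaps belonged to AT5G48490 (0.05), AT2G44240 (0.05), AT4G39670 (0.06) and AT3G14280 (0.08). AT2G44240 had 1.27, 2.66 and 0.03 in A6 and -0.23, -0.03 and -0.296 in wild type, so that its wild-type arrays were close together while its A6 arrays covered more than 2 log2 units. Its difference of 1.504 was 0.83 without A6 replicate 2 and 2.15 without A6 replicate 3. AT4G39670 had 0.34, 1.54 and 0.03 in A6 and -1.71, -0.03 and -0.79 in wild type. AT3G14280 had 0.89, 1.01 and 0.04 in A6 and -1.11, -0.04 and -0.33 in wild type. AT5G48490 had 0.51, 0.02 and 0.78 in A6 and -0.02, -0.71 and -1.24 in wild type, with A6 replicate 2 the lowest A6 array. In the fit of line alone on all 6 arrays, limma called none of these 4 genes. With array weights AT2G44240, AT3G14280 and AT5G48490 were called, where 9.31% of all probe sets were called higher in A6. With the replicate number as a block AT4G39670 was called, where 3.86% were.

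**Figure D2:**
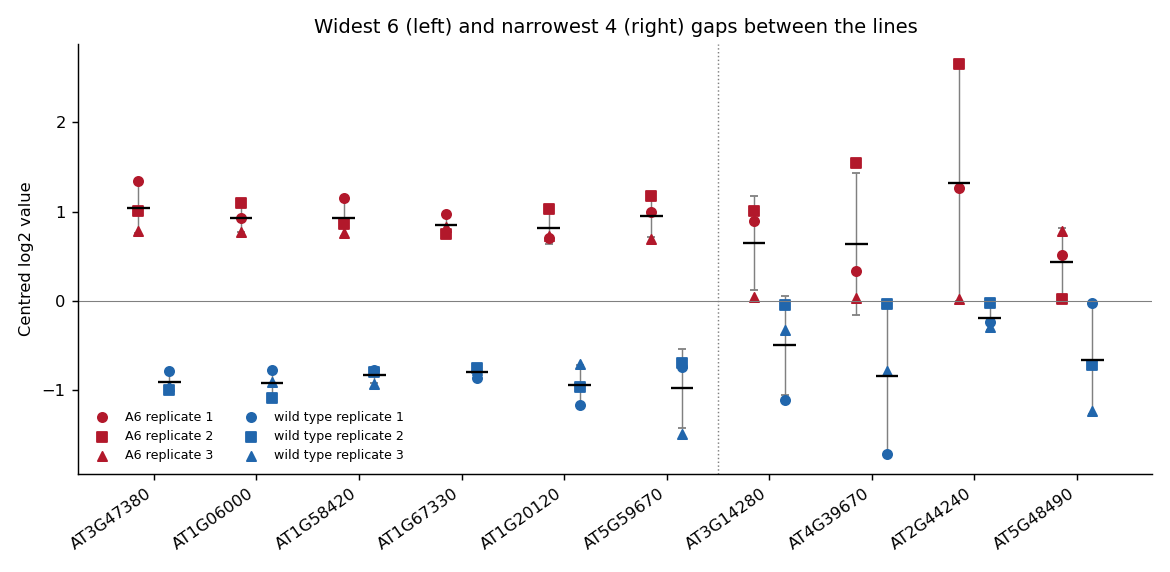
Centred log2 values (vertical axis) of the 6 members with the widest gaps, AT3G47380 to AT5G59670, and, right of the dotted line, the 4 with the narrowest, AT3G14280 to AT5G48490. For each gene A6 is in red on the left and wild type in blue on the right, marker shape gives the replicate, black bars are means and grey bars SD (n = 3). The gap is 1.57 for the first gene and 0.05 for the last.

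In all, 13 members were not called by limma, with differences of 1.004 to 1.82, gaps of 0.049 to 0.46 and standard errors of 0.28 to 0.62, against standard errors of 0.095 to 0.45 among the 141 called. The largest difference among the 13 was that of AT3G54400, chosen here after its values were seen: it had 0.23, 0.31 and 0.701 in A6 and -0.23, -0.92 and -3.08 in wild type, and its difference of 1.82 was 0.99 without wild-type replicate 3. Leaving out 1 array also shrank the difference by over 1.5 times in AT1G55790 (to 0.97 without A6 replicate 2, from 1.55 with all arrays), AT4G12500 (to 0.77 without wild-type replicate 1) and AT5G55560 (to 0.73 without wild-type replicate 1, from 1.16). These and AT2G44240 were the 5 members so affected, and none grew by that much.

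RefSeq names 2 of the genes in its synonyms. AT1G68570 is listed as NPF3.1, of the NRT1/PTR family, membrane carriers that move nitrate, peptides and plant hormones. It had 0.88, 1.19 and 0.61 in A6 replicates 1 to 3, against -0.796, -0.82 and -0.61 in wild-type replicates 1 to 3. The difference was 1.63 (SE 0.16, 3.1-fold), and all A6 values lay 1.21 or more above all wild-type values. AT5G64120 is listed as peroxidase 71 (PRX71), one of the class III peroxidases, secreted enzymes that act on phenolic compounds and on the cell wall. It had 0.73, 0.86 and 0.58 in A6 and -0.91, -0.604 and -0.58 in wild type, a difference of 1.42 (SE 0.13). For both genes A6 replicate 2 was highest and A6 replicate 3 lowest within A6, and the order of the wild-type arrays differed between them.

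The 4 transcribed pseudogenes, gene copies that are transcribed but hold no intact coding sequence, were AT3G48650, AT2G24160, AT4G14610 and AT5G55420. Their differences were 1.67, 1.34, 1.32 and 1.21. All 4 were called by limma, as were 141 of the 154 members and, higher in A6, 5.03% of all probe sets. Nothing is read from this, because the same contrast chose the members. With the 3' minus 5' value added to the fit, as described below, 0 of the 4 were called, against 29 of the 154 and 0.642% of all probe sets. AT2G24160 had 0.94, 1.41 and 0.27 in A6 and -0.27, -0.32 and -0.82 in wild type. AT4G14610 had 0.83, 0.79 and 0.41 in A6 and -0.76, -0.41 and -0.75 in wild type. AT5G55420 had 0.56, 0.62 and 0.496 in A6 and -0.94, -0.51 and -0.496 in wild type, and it lies in RefSeq order 3 places before AT5G55450, which is no member because its difference was larger, 4.26.

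Members were found on all 5 chromosomes. They numbered 41 on chromosome 1, 17 on chromosome 2, 33 on chromosome 3, 23 on chromosome 4 and 40 on chromosome 5. As a share of the locus-code probe sets of a chromosome this is 1.32%, 0.866%, 1.35%, 1.33% and 1.49%, lowest on chromosome 2. Median differences by chromosome lay between 1.22 on chromosome 4 and 1.37 on chromosome 1.

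Position was not part of the rule beyond the 3 ranges left out. In RefSeq gene order 5 pairs of members were next to each other or had 1 gene between them, and with up to 2 genes between, 15 member genes fell into 7 runs. Genes that sit side by side can be copies of each other, and probes can then pick up a neighbour's transcript, which was not tested because no probe sequence is used here.

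AT3G48640 and the pseudogene AT3G48650 are direct neighbours. AT3G48640 had 1.13, 1.23 and 0.38 in A6 and -1.05, -0.38 and -1.22 in wild type, and AT3G48650 had 1.19, 1.305 and 0.58 in A6 and -0.58, -0.63 and -0.73 in wild type. The A6 arrays stand in the same order in both, while the wild-type values of AT3G48650 are much the tighter. AT5G44390 and AT5G44400 are also direct neighbours. AT5G44390 had 0.71, 0.47 and 0.87 in A6 and -0.47, -0.88 and -0.71 in wild type, and AT5G44400 had 0.48, 0.75 and 0.31 in A6 and -0.31, -0.8998 and -1.198 in wild type, so their A6 arrays are ordered in opposite ways. The genes on either side differed from them: AT5G44380 had a difference of 0.26 (SE 0.13) and AT5G44410 one of -0.49 (SE 0.15).

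AT4G12490 and AT4G12500 have 1 gene between them. AT4G12490 had 0.195, 1.26 and 0.37 in A6 and -1.59, -1.07 and -0.195 in wild type, and AT4G12500 had 0.05, 0.89 and 0.17 in A6 and -1.75, -0.74 and -0.05 in wild type. In both, A6 replicate 2 and wild-type replicate 3 were the highest arrays of their lines and wild-type replicate 1 the lowest, and the spread within each line was wide, with SDs of 0.57 in A6 and 0.71 in wild type for the first gene and 0.46 in A6 and 0.85 in wild type for the second. AT4G12490 was called by limma in 2 of the 6 fits without 1 array. AT1G76960 and AT1G76970 have 1 gene between them too. AT1G76960 had 0.88, 1.11 and 0.46 in A6 and -1.74, -0.46 and -0.51 in wild type, a difference of 1.72 that was 1.31 without wild-type replicate 1. AT1G76970 had 0.72, 0.88 and 0.33 in A6 and -0.81, -0.33 and -0.62 in wild type.

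On chromosome 3, AT3G28500, AT3G28510 and AT3G28540 were members, with differences of 1.05 (SE 0.195), 1.17 (SE 0.28) and 1.46 (SE 0.31). AT3G28500 had 0.22, 0.501 and 0.41 in A6 and -0.22, -0.98 and -0.82 in wild type. AT3G28510 had 0.74, 1.26 and 0.12 in A6 and -0.12, -0.62 and -0.65 in wild type, and AT3G28540 had 0.8997, 1.1995 and 0.27 in A6 and -1.299, -0.27 and -0.44 in wild type. The 2 measured genes that separate the last 2 members did not share the difference: AT3G28520 had -0.06 (SE 0.12) and AT3G28530 had -0.72 (SE 0.27). The wild-type arrays of AT3G28530 lay far apart, at -0.005, 1.18 and 0.51 in replicates 1 to 3. The nearest measured neighbours on the outside, AT3G28490 and AT3G28550, had 0.07 and -0.07. Further out, AT3G28480 had 0.39, 0.43 and 0.06 in A6 and -0.75, -0.06 and -0.18 in wild type, a difference of 0.62 (SE 0.195). Its lines did not overlap, but it lies under the lower bound.

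On chromosome 1, AT1G26380 and AT1G26410 were members in a stretch of 5 measured genes. AT1G26380 had 0.62, 1.26 and 0.64 in A6 and -1.69, -1.05 and -0.62 in wild type, and AT1G26410 had 0.54, 0.96 and 0.35 in A6 and -0.46, -0.35 and -0.44 in wild type. Of the genes beside them, AT1G26420 was past the upper bound at 2.63 (SE 0.21). AT1G26390 had 0.72, 2.62 and -0.61 in A6 and -2.49, 0.61 and -1.81 in wild type, a mean difference of 2.14 with overlapping lines, and AT1G26400 had a difference of 0.19 (SE 0.15). The stretch thus holds 4 genes with mean differences above 1 around 1 near 0. On chromosome 3, AT3G60450 had 0.58, 0.77 and 0.33 in A6 and -0.33, -0.4997 and -0.61 in wild type, and it lies 3 places from AT3G60420 and 2 places from AT3G60470, which had a log2 difference of 0.84 (SE 0.15).

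**Figure D3:**
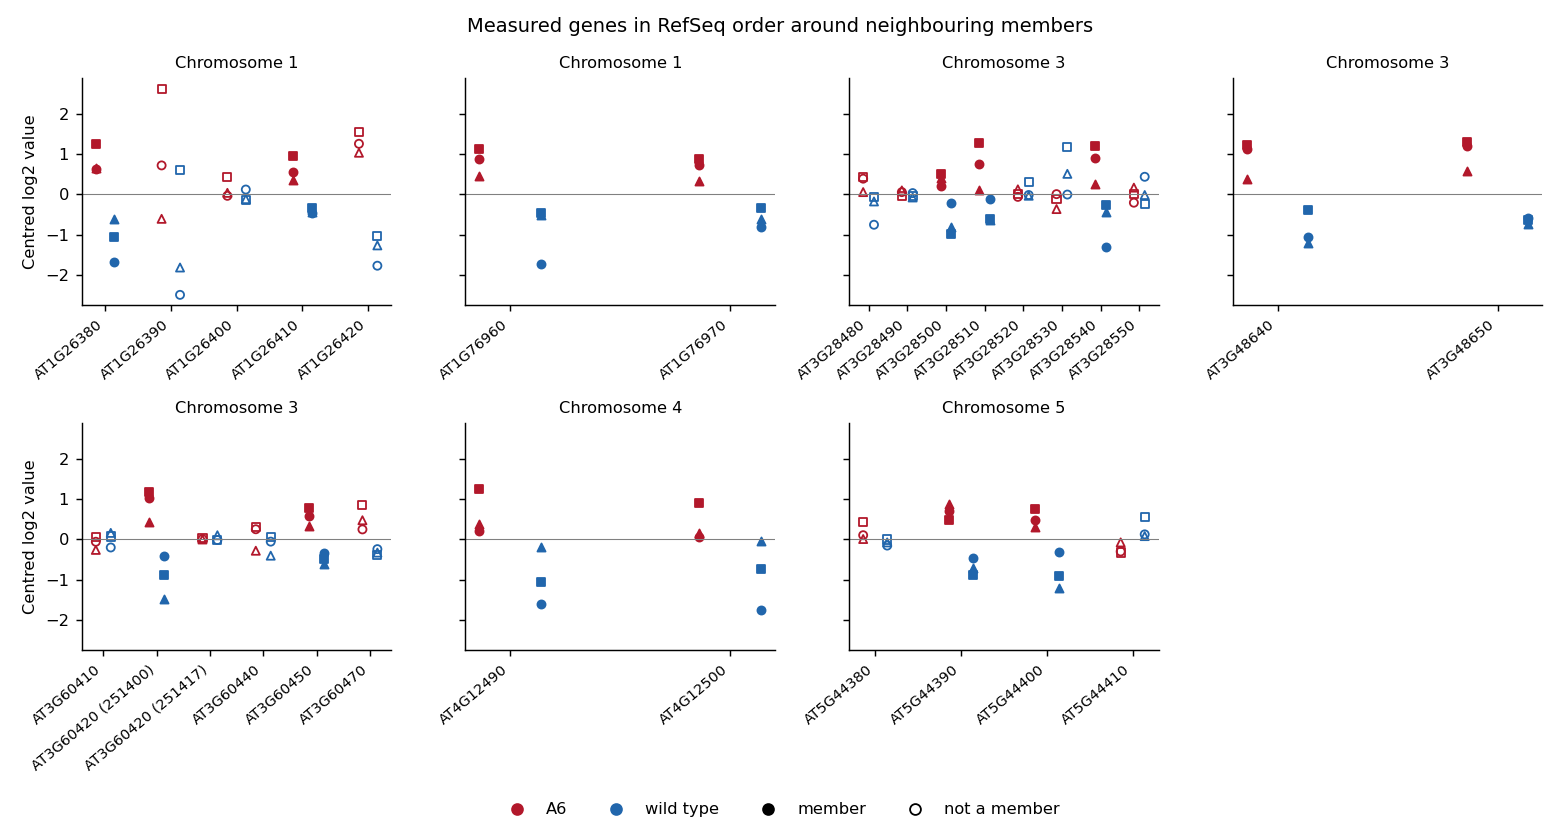
Centred log2 values (vertical axis) of the measured genes in and around the 7 runs of neighbouring members, in RefSeq order along the horizontal axis and named by locus code. Red is A6 and blue wild type, marker shape gives the replicate, filled markers are members and open markers other genes. In the run from AT3G28480 to AT3G28550 the 3 members stand apart with differences of 1.05 to 1.46, while AT3G28520 between them is at -0.06 and AT3G28480 at the edge of the run at 0.62.

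The genes directly next to members that were measured and were no members themselves numbered 114, beside 90 of the member genes. Their median difference was 0.046, and 68 of the 114 (59.6%) had higher means in A6. Among all 13180 named genes that are no members the median was -0.029 and 43.6% had higher means in A6. A difference of at least 1 was found for 3 of the 114 neighbours (2.63%), and for 0.736% of all named non-members. The 3 were AT1G26390, AT1G26420 and cwINV6 (AT5G11920), a fructan exohydrolase gene next to the member AT5G11930. AT5G11930 itself had 1.01, 0.35 and 0.22 in A6 and -1.47, -0.67 and -0.22 in wild type, a difference of 1.31, and cwINV6 one of 2.32. Differences between -0.5 and 0.5 were found for 101 of the 114.

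Of the member genes, 2 were covered by more than 1 single-gene probe set. AT5G44820 had both of its probe sets among the members, with 0.79, 0.81 and 0.32 in A6 and -0.94, -0.32 and -0.72 in wild type on the first and 0.83, 0.66 and 0.28 in A6 and -0.86, -0.28 and -0.85 in wild type on the second. Their differences of 1.296 (SE 0.19) and 1.25 (SE 0.198) were closer than either standard error. AT3G60420 was not measured alike by its 2 probe sets. The member had 1.02, 1.17 and 0.42 in A6 and -0.42, -0.89 and -1.47 in wild type, a difference of 1.799 (SE 0.28), while the other had 0.01, 0.04 and -0.01 in A6 and -0.02, -0.03 and 0.0997 in wild type, a difference of -0.01 (SE 0.09). The difference of AT3G60420 therefore rests on 1 of its 2 probe sets. For the other 151 genes there was no second single-gene probe set to compare.

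An order of the A6 replicates recurred among the members. A6 replicate 2 was the highest A6 array for 96 of the 154 probe sets (62.3%) and A6 replicate 3 the lowest for 104 (67.5%). Among the other 11779 locus-code probe sets these shares were 30.0% and 29.6%. Both held together for 79 members (51.3%), and for 19.6% of all probe sets. They also held for AT4G29520, AT1G68620, AT1G51920 and AT3G51450, the probe sets just outside the bounds, so the order was not particular to the members. How often it held among other raised probe sets was not counted. The median centred value of the members was 0.68, 0.85 and 0.42 on A6 replicates 1 to 3, against -0.74, -0.56 and -0.66 on wild-type replicates 1 to 3. The wild-type order was more even: replicate 1 was lowest for 74 members, replicate 3 for 52 and replicate 2 for 28. The SD was larger in A6 than in wild type for 70 of the 154 members (45.5%), and for 39.5% of all probe sets.

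**Figure D4:**
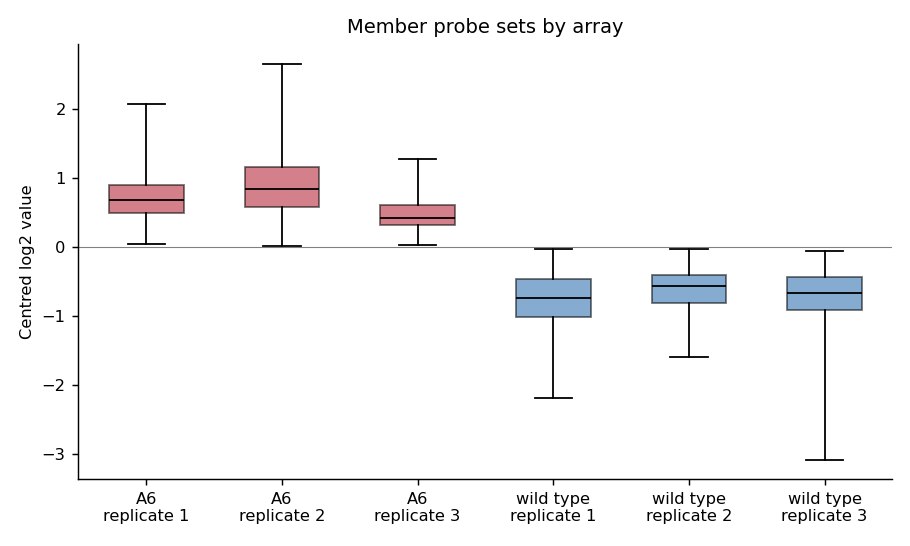
Centred log2 values (vertical axis) of the 154 member probe sets on each array. Boxes (red A6, blue wild type) span the quartiles with the median as a line, and whiskers reach the lowest and highest member. The medians are 0.68, 0.85 and 0.42 for A6 and -0.74, -0.56 and -0.66 for wild type, so A6 replicate 3 is nearest to wild type.

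A6 replicate 3 was the highest A6 array for 28 members. In 19 of the 28 (67.9%) wild-type replicate 1 was also the highest wild-type array, as it was in 34 of the other 126 members (27.0%). Among all probe sets wild-type replicate 1 was highest in 52.4% of the 9478 with A6 replicate 3 highest, and in 34.8% of the other 13268. Over all probe sets the deviations of A6 replicate 3 and wild-type replicate 1 from their group means had a correlation of 0.304, the highest of the 9 pairs of an A6 and a wild-type array. AT3G05180, AT5G51890, AT5G48490 and AT5G44390, described above, are among the 19. A6 replicate 3 and wild-type replicate 1 are the arrays with the high hybridisation controls. Without both of them the median difference was 1.28 for the 28 members (1.31 with all arrays) and 1.396 for the 126 (1.33 with all arrays). It was 1.38 for all 154, of which 149 were called where 7.31% of all probe sets were called higher in A6. Leaving out A6 replicate 3 must lower the A6 mean wherever it was the highest A6 array. The split thus sets part of the contrast between the 28 and the 126, and nothing is read from it. The part of the hybridisation in the order of the arrays was not tested.

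Because the lines do not overlap in any member, leaving out 1 array could not bring a difference to 0 or below. The differences then lay between 0.72 and 2.41. The number of members called by limma was 95, 100 and 129 without A6 replicates 1 to 3, and 144, 111 and 117 without wild-type replicates 1 to 3. The shares of all probe sets called higher in A6 in these fits were 2.04%, 2.55% and 3.92%, and 7.03%, 2.95% and 3.13%. In each of the 6 fits 92 members were called (1.88% of all probe sets), and 1 member, AT4G39670, was called in none. Without moderation of the variances 17 members were called (0.426% of all probe sets higher in A6), and with array weights 152 (9.31%). The rule applied to the remaining arrays chose 147 to 171 probe sets, and 126 to 145 of them were among the 154.

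Adding the 3' minus 5' value of each array, which separated the lines, to the fit as a covariate moved the members in both directions. The median difference was then 1.25, with a range of -0.014 to 2.904, and 109 members kept a difference of at least 1 (3.44% of all probe sets had one). The number called fell to 29, where 0.642% of all probe sets were called higher in A6. The direction of the move followed wild-type replicate 1, the array with the highest 3' minus 5' value. The fit itself largely sets this, since within a line that value varied mainly in wild type (0.016 to 0.091, against -0.033 to -0.021 in A6). The counts below therefore describe the fit and are no trait of the members. In all 53 members in which wild-type replicate 1 was the highest wild-type array the difference was larger with the covariate (median 1.85, against 1.32 without it). In 71 of the 74 in which it was the lowest the difference was smaller (median 0.90, against 1.31 without it). AT5G55560 had -0.01, AT4G39670 0.06 and AT4G12500 0.09 with the covariate, while AT3G54400 had 2.904. Of the 6 genes with the widest gaps AT1G06000 had 2.202, AT3G47380 2.24, AT1G58420 1.87 and AT1G67330 1.53, and these 4 were still called.

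**Figure D5:**
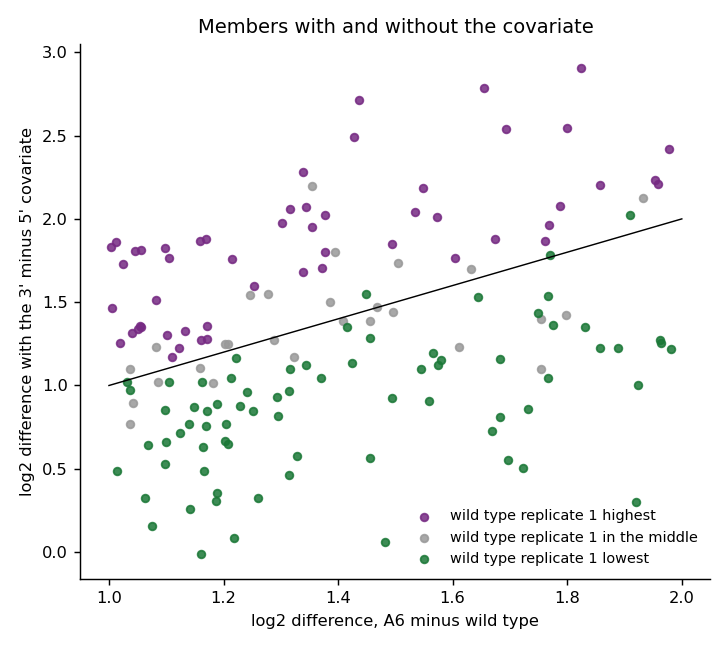
Log2 difference of each member after the array-wise 3' minus 5' value was added to the fit (vertical axis), against the difference without it (horizontal axis); the black line marks equal values. Colour gives the place of wild-type replicate 1 among the wild-type arrays. All 53 members with that array highest (purple) lie above the line, and 71 of the 74 with it lowest (green) lie below. The fit itself largely sets this pattern.

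Other sets of probe sets are set beside the members here as a description, without a test. Probe sets whose gene has a symbol met the bounds in 29 of 1580 cases (1.84%), and unlisted probe sets in 171 of 8730 (1.96%), against 1.29% for the members. Their median gaps were 0.73 and 0.71, against 0.76 for the members. They were called in each of the 6 fits without 1 array in 51.7% and 56.1% of cases, and the members in 59.7%. Among the 39 locus-code probe sets higher by 4-fold or more that share was 87.2% and the median gap 1.599. Over all probe sets 1.88% were called higher in A6 in each of these fits. The same contrast chose all of these sets, the last by a larger difference, so nothing is read from the shares.

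Marker genes were looked up where the annotation pairs a probe set with them alone. Of 14 markers of leaf, root, stomatal, phloem, meristem and senescence tissue 9 were measured, with differences of -0.26 to 0.35. With limma 0 of the 9 passed, where 9.77% of all probe sets did in either direction, and 1 had an unadjusted p under 0.05. So few markers cannot show whether the make-up of the leaves was alike. Of a 10-gene salicylate-linked list 3 could be looked up in this way, and all 3 were called higher, where 5.03% of all probe sets were. The list was chosen with earlier results of these data known, so nothing is read from that count. Of the 3 genes WRKY53, which encodes a WRKY transcription factor active in defence and in leaf senescence, had 1.55, 1.87 and 1.11 in A6 and -1.52, -1.11 and -1.32 in wild type. Its A6 arrays stand in the order most common among the members, with replicate 2 highest and replicate 3 lowest. GRX480, a glutaredoxin induced by salicylate, had 0.41, 0.67 and 0.54 in A6 and -0.41, -0.67 and -1.06 in wild type, within the bounds of the members. SAG101, a partner of the immune regulator EDS1, had 0.603, 0.57 and 0.14 in A6 and -0.46, -0.14 and -0.22 in wild type. Its difference was 0.71. Neither GRX480 nor SAG101 had the A6 order of WRKY53: replicate 1 was the lowest A6 array in GRX480 and the highest in SAG101.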

How the data were processed

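The deposited table, taken as log2 values, was made by the authors with RMA (background correction, quantile normalization, probe summary), per the submitters' processing notes. No version and no log base is given there; base 2 is an assumption. The table holds 22810 probe sets, 64 of them controls, each with a median within 5e-07 of 0 over the arrays, a centring that the notes do not mention. A higher value was read as more signal, as on any 1-colour array. Arrays were assigned from their titles, and their small number limits precision.

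The platform annotation gave 13513 probe sets 1 gene and 503 several, and left 8730 unlisted; RefSeq (TAIR10.1) supplied synonyms and gene order. Differences and standard errors come from limma 3.58.1 in R 4.3.3 (lmFit, eBayes, line only, two-sided), with Benjamini-Hochberg adjustment over 22746 probe sets and a threshold of 0.05. Tested on simulated data of the A6 and wild type comparison with 22746 probe sets, it recovered 78% of 100 changes of 1 log2 unit and 100% of 100 changes of 2, and called 7 unchanged probe sets. The simulated arrays were independent and of equal quality, whereas the weights of the real arrays ran from 0.33 to 3.19. These rates therefore need not hold for the real arrays. The members and lists were chosen with earlier results of these data known. Genes are named as extremes of difference or gap, as neighbours, for having 2 probe sets or for a RefSeq name; the pseudogenes, the wider runs of neighbours, AT5G11930 and the uncalled or array-dependent genes were chosen after their values were seen. Proteins and promoters were not used here. Alternatives were each array left out, a replicate block, array weights, no moderation, the covariate, array medians, averaged probe sets and other bounds.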

Additional observations from a re-analysis of the deposited data

How the results depend on the processing

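The count of 2222 probe sets called by limma was 766 to 3484 without 1 array, 229 without moderation, 290 with the 3' minus 5' covariate, 4691 with array weights and 3465 without the 2 arrays of high spike-in signal, an alternative chosen after seeing the data. Of the 154 members 95 to 144 were called without 1 array, 17 without moderation and 29 with the covariate, against 141 in all; array weights gave 152. Fits with fewer arrays or one more term have fewer residual degrees of freedom, and in fits without 1 array the counts both rose and fell. The cause of these changes was not tested. The bounds themselves set the number of members: 242 with a lower bound of 0.8 and 101 with 1.2. Overlap between the lines added 7 probe sets (161), and 147 to 171 were chosen without 1 array, 158 with array medians subtracted and 152 with all probe sets of a gene averaged. The median difference of the 154 was 1.24 to 1.41 without 1 array and 1.25 to 1.38 under the other alternatives that refit it, among them array weights (1.32), added for this median after seeing the data; the fit without moderation leaves the differences as they are. With the replicate number as a block, 135 members were called, where 3.86% of all probe sets were called higher in A6. In either direction 1526 probe sets were called with the block. The labels tie no replicate of A6 to one of wild type, and deviations of same-numbered arrays had correlations of -0.129, 0.184 and -0.162, so the numbers were not taken as pairs; the highest of the 9 correlations, 0.304, was between A6 replicate 3 and wild-type replicate 1. Among the 34 probe sets named by rule, 0 changed sign under any of the alternatives run. Because the lines do not overlap, leaving out arrays, array weights, the block or no moderation could not change a sign. The covariate could. Calls were gained for 4 of the 34 with array weights and for 1 with the replicate block, which also lost 1. Of the 34, 22 were no longer called without moderation, and 20 with the covariate. Of these 20 the difference was larger with the covariate in 8 and smaller in 12, between 0.49 and 2.55. AT5G55560, named after its values were seen, changed sign with the covariate (-0.014). Signal over background could not be given, because centred values hold no level.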
